A study of Mus musculus with 12 samples.

Results

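The integrin and laminin genes were followed in bulk RNA sequencing libraries of muscle stem cells sorted from mouse hind limb muscle before injury and during repair. Members were chosen by gene symbol: the numbered laminin alpha, beta and gamma chains, and the integrin alpha and beta chains. This rule found 37 genes among the 30154 of the deposited table, and 36 of the 37 passed the filter on low counts beside 15890 genes in all. The gene that did not pass was Itgad, with at most 3 counts in any library. Of the 37, 8 are integrins of leukocytes and platelets and are described apart at the end.

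The basal lamina of muscle is a sheet of laminin, nidogen, collagen and perlecan around each fibre, and the muscle stem cell lies between this sheet and the fibre. A laminin molecule joins an alpha, a beta and a gamma chain, and an integrin joins an alpha and a beta chain that together bind a ligand outside the cell and the actin skeleton inside it. The receptor made of Itga7 and Itgb1 is the classical laminin receptor of the muscle lineage, and Lama2 gives the main laminin alpha chain around adult fibres.

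The mice were C57BL/6J, aged 2 to 3 months per the labels, and either wild type or labelled Sestrin1,2 knockout, after stress-responsive proteins that restrain growth signalling. Tibialis anterior, gastrocnemius and quadriceps muscles were taken at day 0, before injury, and at days 7 and 21 after injury, with 2 libraries for each genotype and day. The labels do not name the kind of injury, the surface markers of the sort, the cell types in which the sestrin genes were deleted, or whether a library came from 1 animal or several. They do not say that replicates came from separate animals, so every p-value below measures the spread between these libraries only. The estimated counts summed to between 28396780 and 38950514 per library.

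The deleted gene contradicted some labels. Sesn2 stood at 75.1 and 84.4 CPM (normalized counts scaled to a common library total) in the wild type at day 0 and at 5.47 and 7.03 CPM in the knockout, and at day 7 at 44.9 and 47.4 against 2.36 and 1.92 CPM. Day 21 values were 8.92 and 82.1 CPM by wild type label and 9.86 and 108 CPM by knockout label. In the same day 21 libraries Sesn1 stood at 43.7 and 78.3 CPM by wild type label and 41.7 and 67.2 CPM by knockout label. The library labelled wild type, replicate 1, and the library labelled knockout, replicate 2, therefore went against their day 21 labels. For this reason day 21 is compared with the other days as the mean of all 4 of its libraries, and its genotypes are compared by label only. Sesn1 stood at 45.8 to 46.0 CPM in the knockout against 68.6 to 70.4 CPM in the wild type at day 0, and at 22.4 to 28.4 against 67.9 to 84.0 CPM at day 7, so its transcript was still present in the knockout libraries. Below, a pair of values is replicate 1 and replicate 2 of a group.

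The cells carried the marks of muscle stem cells and also abundant transcripts of other cells. Pax7, the defining stem cell transcription factor, lay between 10.2 and 60.2 CPM in the 12 libraries, and 8 stem cell markers summed to 781 to 2128 CPM. By the same measure 6 markers of fibro-adipogenic cells summed to 8046 to 28510 CPM, 5 of smooth muscle and pericytes to 3204 to 13370 CPM, and 3 of Schwann cells to 230.6 to 2249 CPM. These sums are given again beside the genes that moved with them. In bulk libraries, fewer cells of a type and less RNA per cell cannot be told apart.

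Promoter sequence is shown for 5 members: for Lamb1 and Lamb2, which moved in opposite directions after injury, for Itgb1, the integrin chain with the highest transcript level, and for the neighbours Itga1 and Itga2, which both fell at day 7 and rose by day 21. Sequences are from RefSeq, build GRCm38.p6, 5′ to 3′ on the strand of the gene, and are limited to bases before the annotated gene. Capitals mark a match on either strand to the E-box CAGCTG, the AP-1 site TGANTCA or the MCAT site CATTCC of TEAD factors, none of which overlap each other in these windows.
Lamb1: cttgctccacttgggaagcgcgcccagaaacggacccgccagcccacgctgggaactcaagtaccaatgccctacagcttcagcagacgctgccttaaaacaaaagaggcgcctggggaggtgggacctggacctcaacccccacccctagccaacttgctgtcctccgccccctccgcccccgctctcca
Lamb2: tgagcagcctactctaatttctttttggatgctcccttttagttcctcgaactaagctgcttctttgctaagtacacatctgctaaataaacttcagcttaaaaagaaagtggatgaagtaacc
Itgb1: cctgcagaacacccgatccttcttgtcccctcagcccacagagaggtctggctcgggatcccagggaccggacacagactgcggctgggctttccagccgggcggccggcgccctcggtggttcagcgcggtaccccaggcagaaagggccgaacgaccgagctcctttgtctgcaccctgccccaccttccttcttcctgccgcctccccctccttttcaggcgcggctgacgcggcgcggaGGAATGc
Itga1: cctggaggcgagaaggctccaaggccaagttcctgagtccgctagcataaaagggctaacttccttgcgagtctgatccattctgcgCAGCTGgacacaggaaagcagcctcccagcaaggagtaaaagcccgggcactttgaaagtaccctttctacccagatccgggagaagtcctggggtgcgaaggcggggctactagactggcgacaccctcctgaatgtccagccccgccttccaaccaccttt
Itga2: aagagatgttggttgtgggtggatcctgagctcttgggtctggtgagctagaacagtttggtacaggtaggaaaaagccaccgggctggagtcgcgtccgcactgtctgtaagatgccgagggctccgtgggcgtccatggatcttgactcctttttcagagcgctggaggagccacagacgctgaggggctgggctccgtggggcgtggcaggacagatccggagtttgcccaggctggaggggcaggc
The windows are chr12:31265043-31265233 (plus strand) for Lamb1, chr9:108479612-108479735 (plus) for Lamb2, chr8:128685404-128685653 (plus) for Itgb1, chr13:115101965-115102214 (minus) for Itga1 and chr13:114932101-114932350 (minus) for Itga2. Windows of 250 bases were given for 23 of the 37 members, 26 windows in all. In the whole 250 bases the Lamb1 window held 14 CpG dinucleotides at 62.0% GC and that of Lamb2 3 at 43.6% GC. The Itgb1 window held 21 CpG and 1 MCAT match on the reverse strand, at bases -7 to -2 before the start. The Itga1 window held 1 E-box, at bases -163 to -158, and no match to the 3 motifs was found for Lamb1, Lamb2 or Itga2. Among all 32851 windows of this length 13% held the E-box, 6.75% the AP-1 site and 12.6% the MCAT site.

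Per transcript length, in TPM (the deposited length-scaled abundance), Itgb1 was the most abundant member in the wild type at day 0 (367.7 and 351.3 TPM), followed by Lamb2 (291.3 and 278.7 TPM), Itgb5 (86.9 and 83.8 TPM) and Itga7 (56.2 and 58.3 TPM). Lama5 (44.7 and 46.4 TPM) came before Lama4, Lamc1, Itga8 and Itgav, which lay between 31.7 and 36.3 TPM, the pair of values that Itgav itself held. Lama2 was at 22.6 and 21.4 TPM and Lamb1 at 23.7 and 22.8 TPM. At day 7 Itgb1 stayed first (516 to 564 TPM in the 4 libraries), while Lamb1, at 63.2 to 97.2 TPM, came nearer to Lamb2, at 140.5 to 237.0 TPM.

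Across the 29 members that are not leukocyte or platelet integrins, the wild type changed at day 7 in both directions. By edgeR's quasi-likelihood test with adjusted p under 0.05, 17 of the 29 were called against day 0, 7 higher and 10 lower, where 47% of all genes tested were called. In the knockout 18 were called, 4 higher and 14 lower, beside 46.9% of all genes. The median log2 fold change of the 29 was -0.06 in the wild type and -0.69 in the knockout, against 0.06 and 0.03 over all genes. With an offset for GC content and transcript length, chosen after seeing the data, these medians were -0.21 and -0.44, against 0.01 and -0.05 over all genes. The split was then 6 higher and 10 lower in the wild type and 6 higher and 13 lower in the knockout, where 47.5% and 47.2% of all genes were called. The median over all genes in the knockout fell with transcript length, from 0.13 in the shortest of 4 length classes to -0.18 in the longest, and in the wild type it was -0.10 in the shortest and 0.14 in the longest. Of the 29, 14 fell in the knockout where 22.2% of all genes did. For 79.6% of all genes in the wild type and 76.1% in the knockout, the day 7 libraries lay wholly above or below the day 0 libraries.

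**Figure D1:**
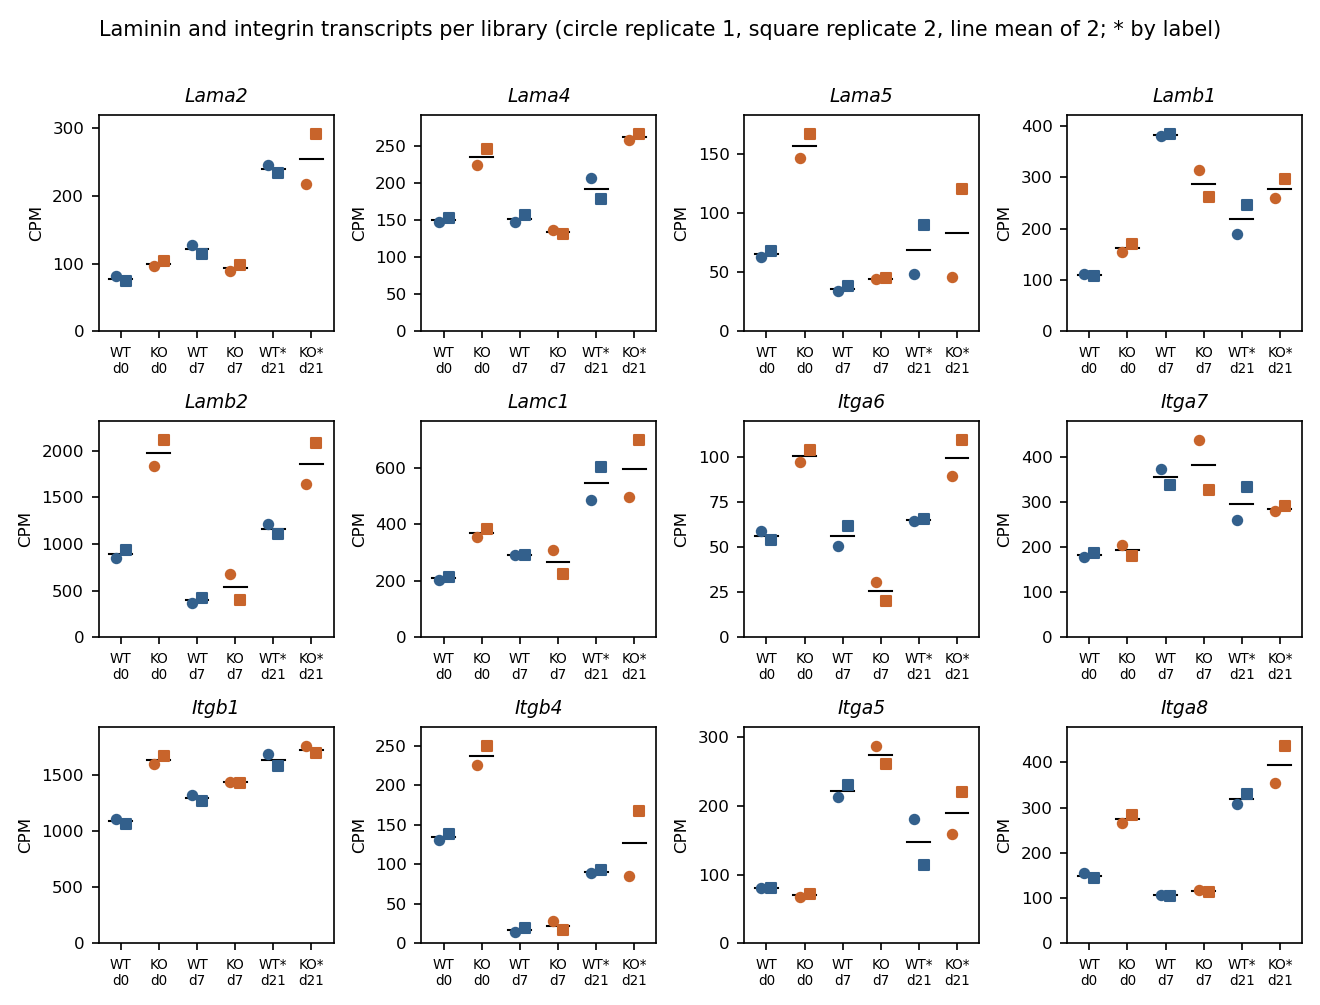
CPM of 12 laminin and integrin genes in each of the 12 libraries, by labelled genotype and day; circles are replicate 1, squares replicate 2, lines the mean of 2, and an asterisk marks groups given by label only. Lamb2, Itgb4 and Itga8 were lowest at day 7, while Lamb1, Itga7 and Itga5 were lowest at day 0.

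Among the laminin chains, the beta chains turned over after injury. Lamb1, the beta chain of the laminins of development and regeneration, stood at 111 and 108 CPM in the wild type at day 0, at 380.0 and 383 CPM at day 7, and in the knockout at 154 and 169 and then 313 and 261 CPM. The day 21 libraries held 189.8 and 246 CPM by wild type label and 259 and 296 CPM by knockout label. Every day 7 library was above every day 0 library. Lamb1 rose at day 7 by 1.81 ± 0.14 (log2 fold change ± SE) in the wild type (edgeR adjusted p = 5.95e-06) and by 0.83 ± 0.13 in the knockout (adjusted p = 0.000587). It stayed above day 0 at day 21 (0.89 ± 0.10, adjusted p = 5.49e-05) and was below day 7 (-0.43 ± 0.09, adjusted p = 0.00292). Under the GC and length offset these 2 values of Lamb1 were 0.55 and -0.84, both called.

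Lamb2, the beta chain typical of synaptic, vascular and nerve basement membranes, took the opposite course. It was 847 and 934 CPM in the wild type at day 0 and 369 and 421 CPM at day 7, and in the knockout 1837 and 2110 CPM and then 675 and 404 CPM. At day 21 the libraries labelled wild type held 1215 and 1108 CPM and those labelled knockout 1640 and 2077 CPM. All 4 day 7 libraries were below the other 8. Lamb2 fell at day 7 in the wild type (-1.17 ± 0.21, adjusted p = 0.00142) and in the knockout (-1.87 ± 0.22, adjusted p = 7.51e-05), and rose from day 7 to day 21 (1.67 ± 0.15, adjusted p = 1.05e-05). Day 21 did not differ from day 0 by the test (0.15).

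The ratio of Lamb2 to Lamb1 in TPM shows both courses in 1 number per library. It was 12.3 and 12.2 in the wild type at day 0, 16.3 and 15.8 in the knockout, 1.48 and 1.68 in the wild type at day 7, and 3.11 and 2.28 in the knockout. By day 21 it stood at 8.90 and 6.59 by wild type label and 9.76 and 10.9 by knockout label. The 3 days did not overlap, and within days 0 and 7 the knockout libraries were both above the wild type ones. Of 5 smooth muscle and pericyte markers 4 were higher and 0 lower in the knockout at day 0, 1 rose and 3 fell at day 7 in the wild type, 1 rose and 4 fell in the knockout, and 4 rose and 1 fell from day 7 to day 21. They summed to 8548 to 8603 CPM in the wild type and 13000 to 13370 CPM in the knockout at day 0, to 3204 to 4793 CPM at day 7 and to 4988 to 6835 CPM at day 21. At day 21 against day 0, where Lamb2 was not called, 1 of the 5 markers rose and 2 fell. Their part in the Lamb2 values was not tested.

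**Figure D2:**
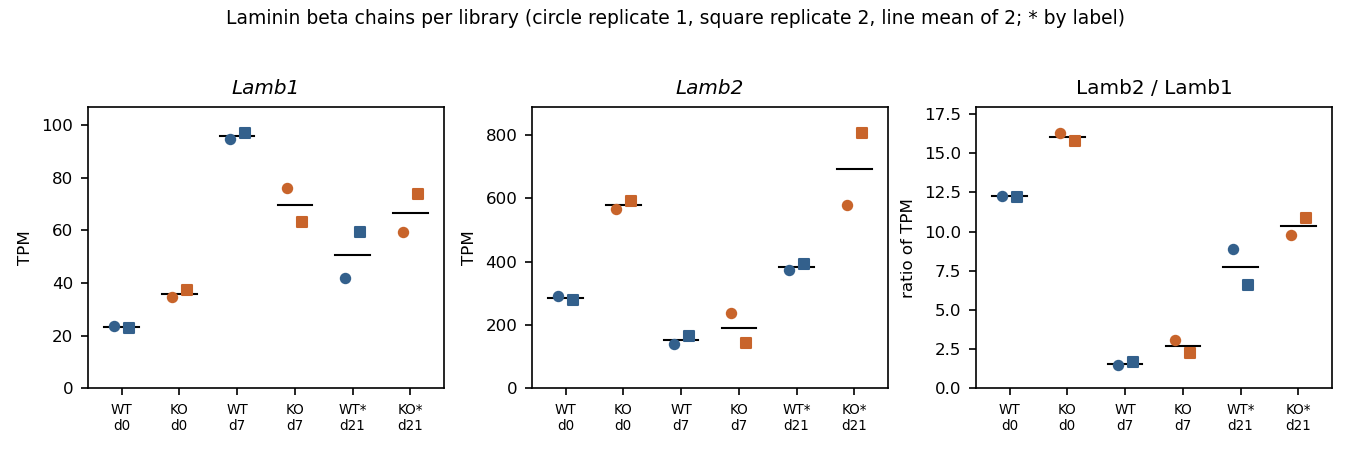
TPM of the laminin beta chains Lamb1 and Lamb2, and the ratio of the 2, in each library; circles are replicate 1, squares replicate 2, lines the mean of 2, and an asterisk marks groups given by label only. The ratio fell from 12.2 to 16.3 at day 0 to between 1.48 and 3.11 at day 7 and stood between 6.59 and 10.9 at day 21.

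Lama2 and Lamc1, which with a beta chain make the main laminin of the fibre, were highest at day 21. Lama2 stood at 81.1 and 74.5 CPM in the wild type at day 0 and 128 and 114 CPM at day 7, and in the knockout at 96.2 and 104 and then 88.4 and 97.7 CPM. At day 21 it was 246 and 234 CPM by wild type label and 217 and 291 CPM by knockout label, above the other 8 libraries. The rise from day 0 to day 21 was 1.49 ± 0.10 (adjusted p = 3.34e-06) and from day 7 to day 21 1.22 ± 0.10 (adjusted p = 3.51e-06), the second of which was 0.71 under the GC and length offset and still called. At day 7 Lama2 rose in the wild type (0.64 ± 0.13, adjusted p = 0.00309) and had a log2 fold change of -0.10 in the knockout, which did not pass.

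Lamc1, the gamma chain shared by most laminins, was 204 and 214 CPM in the wild type at day 0, 355 and 383 CPM in the knockout, and at day 7 292 and 290.2 CPM in the wild type and 308 and 225 CPM in the knockout. It reached 487 and 603 CPM at day 21 by wild type label and 497 and 697 CPM by knockout label. Day 21 lay above both earlier days in every library (1.04 ± 0.13 against day 0, adjusted p = 0.000141, and 1.03 ± 0.13 against day 7, adjusted p = 7.25e-05). Under the GC and length offset these were 0.66 (adjusted p = 0.00016) and 0.43 (adjusted p = 0.00122). The day 7 changes of Lamc1 did not pass the test in either genotype (0.48, adjusted p = 0.052, and -0.47, adjusted p = 0.055).

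Lama4 and Lama5 are the alpha chains of vessel walls, and Lama4 also surrounds Schwann cells. Lama4 was 147 and 153 CPM in the wild type at day 0 and 147 and 156 CPM at day 7, and it was not called there. In the knockout it was 224 and 246 CPM at day 0 and 136 and 131 CPM at day 7, a fall of -0.82 ± 0.10 (adjusted p = 6.59e-05). In the same libraries 3 of 3 Schwann cell markers, 4 of 5 smooth muscle and pericyte markers and 2 of 7 endothelial markers fell, with 1 smooth muscle and pericyte marker higher; the endothelial markers summed to 245.6 to 253.2 CPM in the knockout at day 0 and to 209.9 and 81.2 CPM at day 7. Their part in the Lama4 and Lama5 values was not tested. From day 7 to day 21, where it was 206 and 177 CPM by wild type label and 257 and 265 CPM by knockout label, Lama4 rose by 0.65 ± 0.07 (adjusted p = 1.85e-05), a value that was 0.23 under the GC and length offset (adjusted p = 0.0221). Its rise from day 0 to day 21 (0.25 ± 0.07, adjusted p = 0.011) ended when either WT day 0 replicate 1 or KO day 0 replicate 1 was left out (adjusted p 0.0534 and 0.0524) and turned to -0.13 under that offset.

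Lama5 stood at 63.2 and 68.0 CPM in the wild type and 147 and 167 CPM in the knockout at day 0, and at day 7 at 34.2 and 38.3 CPM in the wild type and 44.0 and 44.9 CPM in the knockout. It fell at day 7 in the knockout (-1.82 ± 0.42, adjusted p = 0.00705), by -1.02 under the GC and length offset and by -1.01 on log2(TPM + 1), both called. The wild type change, -0.86, did not pass (adjusted p = 0.12). At day 21 both replicate 1 libraries (48.4 and 46.4 CPM) were far below both replicate 2 libraries (90.4 and 121 CPM), whatever their label. Sesn2 was low in the same replicate 1 libraries (8.92 and 9.86 CPM) and high in the replicate 2 libraries (82.1 and 108 CPM). The rise from day 7 to day 21 (0.93 ± 0.29, adjusted p = 0.0242) ended without any 1 of the 4 day 7 libraries or without WT day 21 replicate 2 (adjusted p 0.0549 to 0.0903). It was 0.52 without KO day 21 replicate 2, 0.07 under the GC and length offset (adjusted p = 0.805) and -0.01 when tested on TPM.

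Lama3 and Lamb3 are chains of the laminin of epithelia. Lama3 was 3.50 and 3.85 CPM in the wild type at day 0, 9.55 and 8.54 CPM in the knockout, and at day 7 0.789 and 0.931 CPM in the wild type and 1.60 and 1.66 CPM in the knockout. Day 21 held 12.1 and 16.7 CPM by wild type label and 12.5 and 25.3 CPM by knockout label. The 3 days did not overlap. Lama3 fell at day 7 (-2.09 ± 0.34 in the wild type, adjusted p = 0.000641, and -2.47 ± 0.32 in the knockout, adjusted p = 0.000146) and rose from day 7 to day 21 by 3.80 ± 0.24 (adjusted p = 1.04e-06). The rise at day 21 over day 0 was 1.51 ± 0.21 (adjusted p = 0.00028), and 0.81 at its lowest among the alternatives, still called. On log2(TPM + 1), which compresses such low values, the wild type fall of Lama3 did not pass (adjusted p = 0.123), the knockout fall was -0.78 and the rise from day 7 to day 21 1.47.

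Lamb3 was 3.62 and 3.72 CPM in the wild type at day 0 and 1.19 and 1.25 CPM in the knockout, 1.12 and 1.47 and then 1.93 and 2.63 CPM at day 7, and at day 21 2.01 and 10.0 CPM by wild type label and 3.14 and 5.10 CPM by knockout label. It rose from day 7 to day 21 (1.53 ± 0.42, adjusted p = 0.0105, but up to 0.175 on TPM), by 0.74 without WT day 21 replicate 2. The rise over day 0 (1.23 ± 0.42, adjusted p = 0.0357) was 0.45 without WT day 21 replicate 2, the library at 10.0 CPM, and ended in 6 leave-one-out fits in all, those without any day 0 library or without either day 21 replicate 2 library (adjusted p 0.0867 to 0.198). Lamb3 was not called between the genotypes at day 0. There 7 of 7 tested keratinocyte markers were lower in the knockout, in which Lama3 was higher, and the 8 markers summed to 345.5 to 355.5 CPM in the wild type and 103.3 to 105.4 CPM in the knockout, where Krt5, Krt14, Krt15 and Krt1 were at 0 in both libraries. From day 7 to day 21, where Lama3 and Lamb3 rose, 6 of 7 tested keratinocyte markers rose and the sums went from 37.8 to 44.8 CPM up to 85.2 to 181.7 CPM. Their part in the Lama3 and Lamb3 values was not tested.

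Lamc3 was 18.8 and 18.7 CPM in the wild type at day 0, 4.07 and 4.78 CPM at day 7, and in the knockout 23.8 and 27.4 and then 15.7 and 8.93 CPM. The day 21 libraries held 11.2 and 12.5 CPM in both replicate 1 libraries and 49.6 and 39.9 CPM in both replicate 2 libraries. The fall in the wild type (-2.08 ± 0.74, adjusted p = 0.0496) ended without any 1 of the 8 day 0 and day 7 libraries (adjusted p 0.0665 to 0.188). The rise from day 7 to day 21 (1.94 ± 0.52, adjusted p = 0.0123) had adjusted p = 0.0512 without KO day 7 replicate 2 and was 1.21 without WT day 21 replicate 2. Lama1, the embryonic alpha chain, had no count in either wild type library at day 0 and 30 and 31 counts at day 7, at least 8.79-fold above the floor of 3 counts per library, and 56 and 33 counts in both day 21 replicate 2 libraries against 0 in both replicate 1 libraries. Lamc3 and Lama1 were thus split at day 21 by the same pairs of libraries as Lama5 and Sesn2. This was not particular to them. Lamc1, Lama3, Lamb3, Itga1, Itga3, Itga7, Itgb3 and Itgb4 were also lower in both replicate 1 libraries than in both replicate 2 libraries. Itgb5, Itgb8 and Itga9 were higher in both replicate 1 libraries. The share of all genes split in this way is not given. Lama1 was not called in any comparison.

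At day 21 more laminin chains were called higher than lower: 6 of 11 were higher and 0 lower against day 0, and 8 higher and 1 lower, Lamb1, against day 7. Not all chains rose, and the lowest log2 fold change against day 0 was -0.41. Over the 29 non-leukocyte members, 16 rose and 3 fell against day 0, where 45.9% of all genes were called and 25% were higher, and 20 rose and 4 fell against day 7, where 56.8% of all genes were called and 28.4% were higher. The median log2 fold changes were 0.46 and 1.03, against 0.02 and 0.01 over all genes. Without KO day 0 replicate 1, 12 members rose and 0 fell against day 0, and the share of all genes called in that fit is not given. In the day 21 libraries 8 of 8 muscle stem cell markers and 4 of 6 fibro-adipogenic markers were higher than at day 0, with 1 fibro-adipogenic marker lower, and 3 of 3 Schwann cell markers were lower. Of 11 tested leukocyte markers 8 were higher and 1 lower, and of 7 tested keratinocyte markers 4 were higher and 1 lower. Of 6 muscle fibre markers 5 were higher and 0 lower. Stem cell markers summed to 781 to 1346 CPM at day 0 and 1303 to 2128 CPM at day 21, and fibro-adipogenic markers to 8046 to 14770 CPM and 15120 to 25010 CPM. Against day 7, 5 stem cell markers were higher and 2 lower, 2 fibro-adipogenic markers higher and 2 lower, and 3 of 3 Schwann cell markers higher. There 4 smooth muscle and pericyte markers were higher and 1 lower, and 6 keratinocyte markers higher and 0 lower. Leukocyte markers were mostly lower (1 higher and 7 lower), as were muscle fibre markers (0 higher and 4 lower). The part of all these markers in the day 21 changes was not tested. Members are long transcripts, 24 of 29 in the longest of 4 length classes (4722 bases or more), and the median over all genes rose with length in these comparisons, from -0.28 to 0.36 over day 0 and from -0.29 to 0.41 over day 7 between the shortest and the longest class. Under the GC and length offset the day 21 split over day 0 was 10 higher and 5 lower with a median of 0.19, where 41.5% of all genes were called and their median was -0.03, and over day 7 17 higher and 5 lower with a median of 0.43, where 53.2% were called and the median was 0.01. Some integrins moved by over 1.5 times under the offset and were still called. Over day 0 Itga8 was then 0.43, Itgav 0.66, Itgb1 0.20, Itga1 -0.61 and Itga3 -0.58. Over day 7 Itga1 was 0.41, Itga9 0.69, Itgb3 0.73 and Itga7 -0.56. The offset ended the day 21 calls of Itga2, Itga9, Itgb3, Itgb5, Lamb3 and Lama4 over day 0 (adjusted p 0.0523 to 0.768) and of Itga3, Itgb5 and Lama5 over day 7 (adjusted p 0.137 to 0.805).

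The laminin-binding integrins Itga7 and Itga6 diverged at day 7. Itga7 stood at 179 and 187 CPM in the wild type and 206 and 181 CPM in the knockout at day 0, at 375 and 338 and at 438 and 328 CPM at day 7, and at 260 and 335 CPM by wild type label and 281 and 292 CPM by knockout label at day 21. Every library after injury was above every library before it. Itga7 rose by 0.96 ± 0.15 in the wild type (adjusted p = 0.000582) and by 0.98 ± 0.15 in the knockout (adjusted p = 0.000452) and was above day 0 at day 21 (0.63 ± 0.11, adjusted p = 0.000944). At day 7, 5 of 6 muscle fibre markers and 5 of 5 differentiating myoblast markers rose in each genotype. The fibre markers summed to 65.9 to 74.9 CPM in the wild type and 43.2 to 47.6 CPM in the knockout at day 0, to 1182 to 1733 and 1580 to 2507 CPM at day 7, and to 176.1 to 438.5 CPM at day 21. Their part in the Itga7 values was not tested. Day 21 was below day 7 (-0.34 ± 0.11, adjusted p = 0.0202), a call that ended without either day 7 replicate 1 or either day 21 replicate 1 library (adjusted p 0.061 to 0.0834). The difference between the genotypes' day 7 responses was 0.02 ± 0.22 (adjusted p = 0.975), and the genotype differences were 0.08 ± 0.15 at day 0 and 0.10 ± 0.15 at day 7.

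Itga6, which pairs with Itgb1 or Itgb4, was 58.9 and 54.3 CPM in the wild type at day 0 and 50.9 and 62.2 CPM at day 7, overlapping ranges. In the knockout it was 97.4 and 104 CPM at day 0 and 30.6 and 20.5 CPM at day 7. Thus the knockout libraries were the highest of the 4 day 0 libraries and the lowest of the 4 at day 7. Itga6 did not pass the test in the wild type (adjusted p = 0.998) and fell in the knockout (-1.98 ± 0.18, adjusted p = 1.4e-05, and -1.29 on log2(TPM + 1), still called). It was higher in the knockout at day 0 (0.83 ± 0.18, adjusted p = 0.00735) and lower at day 7 (-1.14 ± 0.18, adjusted p = 0.0162), the 1 genotype difference called at day 7 among the 29 members, where 1.76% of all genes were called.

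The response of Itga6 differed between the genotypes by -1.98 ± 0.25 (adjusted p = 0.00223). This difference was called in every alternative run, with values from -2.30 to -1.27. The day 0 difference ended without WT day 0 replicate 2 or KO day 0 replicate 2 (adjusted p 0.0583 and 0.0528). The day 7 difference ended without either WT day 7 library or without KO day 7 replicate 2 (adjusted p 0.0791, 0.105 and 0.0536), and on TPM (adjusted p 0.0535 to 0.0542). At day 21 Itga6 was 64.8 and 65.8 CPM by wild type label and 89.6 and 109.5 CPM by knockout label, above day 7 (1.08 ± 0.13, adjusted p = 4.13e-05).

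Itgb1, the beta chain shared by most matrix receptors, was 1104 and 1065 CPM in the wild type at day 0 and between 1269 and 1754 CPM in the other 10 libraries. The knockout stood at 1597 and 1664 CPM at day 0 and the day 7 libraries at 1319 and 1269 CPM in the wild type and 1437 and 1429 CPM in the knockout. At day 21 the values were 1683 and 1576 CPM by wild type label and 1754 and 1694 CPM by knockout label. Itgb1 rose from day 0 to day 21 (0.33 ± 0.06, adjusted p = 0.00108) and from day 7 to day 21 (0.30 ± 0.06, adjusted p = 0.00132). Its day 7 rise in the wild type (0.25 ± 0.08, adjusted p = 0.0272) ended without any 1 of the wild type day 0 or day 7 libraries or KO day 0 replicate 2 (adjusted p 0.0669 to 0.203), and was 0.06 under the GC and length offset (adjusted p = 0.565). Whether the sort selected cells by this protein is not given in the sources used here.

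Itgb4 fell at day 7 in both genotypes, and Itga3 did so on counts. Itga3 lay between 15.9 and 34.1 CPM and fell by -0.98 ± 0.16 in the wild type (adjusted p = 0.000701) and by -0.69 ± 0.16 in the knockout (adjusted p = 0.00497). The knockout fall of Itga3 did not pass on TPM (-0.13, adjusted p = 0.655, with a pseudocount of 1), with the effective length offset (-0.26, adjusted p = 0.35) or on the rlog values (-0.22, adjusted p = 0.352), and was -0.44 under the GC and length offset. Its deficit at day 21 against day 0, given below, also ended in the first 3 of these settings (adjusted p 0.154 to 0.425). Itgb4, the partner of Itga6 in hemidesmosomes and in Schwann cells, was 131 and 139 CPM in the wild type and 226 and 249 CPM in the knockout at day 0, and 14.8 and 19.8 and then 28.7 and 16.3 CPM at day 7. By day 21 it stood at 89.0 and 92.4 CPM by wild type label and 85.0 and 168 CPM by knockout label. The day 7 libraries were the 4 lowest by a wide margin: the fall was -2.96 ± 0.35 in the wild type (adjusted p = 0.000173) and -3.40 ± 0.35 in the knockout (adjusted p = 7.03e-05), followed by a rise of 2.44 ± 0.24 to day 21 (adjusted p = 3.34e-05).

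Schwann cell markers were among those that moved with Itgb4. Mbp, Sox10 and Cdh19, detected in each library, summed to 1937 to 1995 CPM in the wild type and 2200 to 2249 CPM in the knockout at day 0, to 230.6 to 300 CPM at day 7 and to 594.4 to 922.5 CPM at day 21, and 3 of 3 fell in both genotypes at day 7. Of 7 tested keratinocyte markers 0 rose and 6 fell at day 7 in the wild type, and 1 rose and 1 fell in the knockout. From day 7 to day 21, 6 of them rose. Of 5 smooth muscle and pericyte markers 1 rose and 3 fell at day 7 in the wild type, and 1 rose and 4 fell in the knockout. From day 7 to day 21, 4 of these rose and 1 fell. The part of these markers in the Itgb4 values was not tested. The deficit of Itgb4 at day 21 against day 0 (-0.74 ± 0.23, adjusted p = 0.0265) ended without any 1 of the 4 day 0 libraries or either library labelled wild type at day 21 (adjusted p 0.0558 to 0.0755), and that of Itga3 (-0.38 ± 0.11, adjusted p = 0.0195) without WT day 0 replicate 2, KO day 0 replicate 1 or either day 21 replicate 1 library (adjusted p 0.055 to 0.0679).

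**Figure D3:**
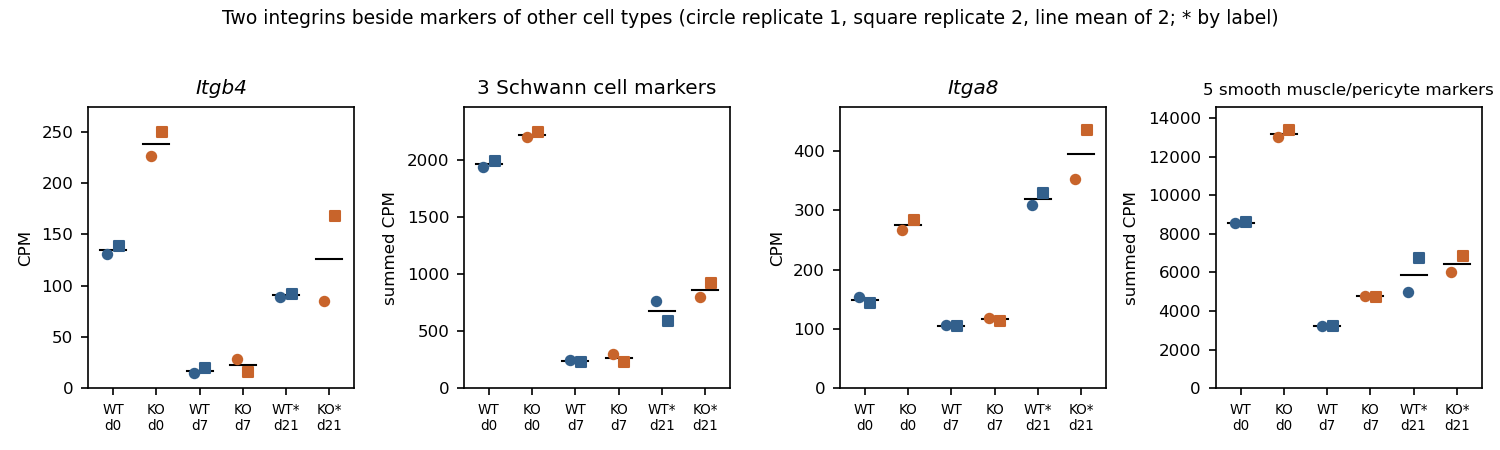
CPM of Itgb4 and Itga8 beside the summed CPM of 3 Schwann cell markers and 5 smooth muscle and pericyte markers in each library; circles are replicate 1, squares replicate 2, lines the mean of 2, and an asterisk marks groups given by label only. Itgb4 and the Schwann sum were both lowest at day 7, at 14.8 to 28.7 and 230.6 to 300 CPM.

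Of the 4 collagen-binding alpha chains, 2 rose and 2 fell at day 7 in the wild type, and 0 rose and 2 fell in the knockout. Over all genes 47% were called in the wild type (25.8% higher and 21.2% lower). In the knockout 46.9% were called (24.7% higher and 22.2% lower). Itga1 and Itga2 are adjacent genes on chromosome 13 (GRCm38 114953096 to 115101964 and 114833081 to 114932100, both on the minus strand). Itga1 was 67.9 and 59.2 CPM in the wild type and 90.9 and 89.0 CPM in the knockout at day 0, and 37.5 and 34.8 and then 32.2 and 34.1 CPM at day 7. Day 21 held 55.1 and 59.9 CPM by wild type label and 58.0 and 77.0 CPM by knockout label. Itga1 fell at day 7 by -0.81 ± 0.14 in the wild type (adjusted p = 0.000749) and -1.44 ± 0.14 in the knockout (adjusted p = 1.72e-05). On log2(TPM + 1) the wild type fall was -0.50 (limma adjusted p = 0.0398). Itga1 then rose to day 21 by 0.85 ± 0.10 (adjusted p = 3.47e-05).

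Itga2 was 15.4 and 13.6 CPM in the wild type and 22.5 and 21.3 CPM in the knockout at day 0, 8.40 and 7.29 and then 6.12 and 5.23 CPM at day 7. Day 21 held 24.0 and 20.4 CPM by wild type label and 26.3 and 27.8 CPM by knockout label. The day 7 libraries were the 4 lowest for both Itga1 and Itga2. Itga2 fell by -0.88 ± 0.15 in the wild type (adjusted p = 0.000835) and by -1.95 ± 0.15 in the knockout (adjusted p = 5.44e-06), a difference of -1.06 ± 0.21 (adjusted p = 0.013), which ended without WT day 0 replicate 2 or WT day 7 replicate 1 (adjusted p 0.0597 and 0.0539). On log2(TPM + 1) these falls were -0.43 (limma adjusted p = 0.0442) and -1.22, still called. The rise of Itga2 from day 7 to day 21 was 1.88 ± 0.11 (adjusted p = 6.84e-07), and its rise over day 0 (0.46 ± 0.10, adjusted p = 0.00457) ended under the GC and length offset (0.04). The deficit of Itga1 at day 21 against day 0 (-0.28 ± 0.09, adjusted p = 0.034) ended in 5 leave-one-out fits, without WT day 0 replicate 1, either KO day 0 library or either day 21 replicate 1 library (adjusted p 0.0716 to 0.124).

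Itga11, the collagen receptor of fibroblasts, stood at 35.0 and 42.2 CPM in the wild type and 54.7 and 56.1 CPM in the knockout at day 0, at 73.9 and 87.4 and then 83.5 and 72.7 CPM at day 7, and at 93.8 and 61.8 CPM by wild type label and 114 and 152 CPM by knockout label at day 21. All 8 libraries after injury were above the 4 before it. It rose at day 7 in the wild type (1.06 ± 0.21, adjusted p = 0.00199) and at day 21 over day 0 (1.14 ± 0.15, adjusted p = 0.000176). The knockout change at day 7 was 0.50 ± 0.20 (adjusted p = 0.0692). Of 6 markers of fibro-adipogenic cells 3 rose and 1 fell at day 7 in each genotype, and their part in the Itga11 values was not tested. Itga10 lay between 4.38 and 11.4 CPM, and its rise in the wild type at day 7 (0.82 ± 0.27, adjusted p = 0.0316) ended without any 1 of the wild type day 0 or day 7 libraries or KO day 0 replicate 2 (adjusted p 0.0506 to 0.176).

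Of the chains that bind fibronectin, vitronectin and latent TGF-beta, Itga5 rose and Itgb8 fell at day 7 in both genotypes. Itga5, the alpha chain of the fibronectin receptor, was 79.9 and 81.1 CPM in the wild type and 67.3 and 72.3 CPM in the knockout at day 0, and 213 and 230 and then 287 and 262 CPM at day 7. Day 21 values were 181 and 114 CPM by wild type label and 159 and 220 CPM by knockout label. Each library after injury was above each before it. The day 7 rise was 1.46 ± 0.21 in the wild type (adjusted p = 0.000298) and 1.97 ± 0.21 in the knockout (adjusted p = 4.12e-05). Day 21 stayed above day 0 by 1.16 ± 0.14 (adjusted p = 0.000153) and lay below day 7 by -0.56 ± 0.14 (adjusted p = 0.00704), and by -0.85 without the 2 day 21 libraries that went against their labels.

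Itgb8, a beta chain that activates latent TGF-beta, was 34.6 and 32.3 CPM in the wild type and 42.3 and 45.7 CPM in the knockout at day 0, and 8.32 and 8.38 and then 10.7 and 8.64 CPM at day 7. Day 21 held 39.2 and 23.2 CPM by wild type label and 41.3 and 35.0 CPM by knockout label. The day 7 libraries lay apart from the other 8. Itgb8 fell by -2.0 ± 0.22 (adjusted p = 5.77e-05) and -2.18 ± 0.22 (adjusted p = 2.78e-05) and rose again by 1.94 ± 0.16 from day 7 to day 21 (adjusted p = 4.25e-06). Day 21 did not differ from day 0 by the test (-0.15).

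Itga8, a receptor for nephronectin and fibronectin found on fibroblasts and smooth muscle, was 155 and 144 CPM in the wild type and 267 and 284 CPM in the knockout at day 0, and 106 and 105 and then 118 and 114 CPM at day 7. Its day 21 levels were 309 and 330 CPM by wild type label and 354 and 436 CPM by knockout label. The 3 days did not overlap. Itga8 fell in the wild type (-0.50 ± 0.10, adjusted p = 0.00312, lost on TPM with adjusted p up to 0.223) and in the knockout (-1.24 ± 0.11, adjusted p = 8.69e-06). It rose from day 7 to day 21 by 1.68 ± 0.08 (adjusted p = 1.87e-07) and stood 0.81 ± 0.07 above day 0 (adjusted p = 2.21e-05). The counts and sums of the smooth muscle and pericyte markers are those given beside Lamb2, and their part in the Itga8 values was not tested.

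Itgav, the vitronectin receptor alpha chain, was 61.2 and 53.7 CPM in the wild type and 79.7 and 81.4 CPM in the knockout at day 0, and 55.3 and 55.0 and then 51.1 and 43.2 CPM at day 7. By wild type label it was 141.7 and 121 CPM at day 21, and by knockout label 149 and 163 CPM. Day 21 was above every earlier library (1.07 ± 0.08 over day 0, adjusted p = 8.15e-06, and 1.49 ± 0.08 over day 7, adjusted p = 6.28e-07). Itgav fell at day 7 in the knockout (-0.77 ± 0.12, adjusted p = 0.000381, and -0.41 on log2(TPM + 1), still called) and was not called in the wild type (-0.06). Itgb5, one of its beta partners, lay between 210.0 and 364 CPM and rose at day 21 over day 0 by 0.34 ± 0.09 (adjusted p = 0.0106), a call that ended under the GC and length offset. Its rise over day 7 (0.27 ± 0.09, adjusted p = 0.023) ended without either WT day 7 library, KO day 7 replicate 2 or either day 21 replicate 1 library (adjusted p 0.0513 to 0.0807).

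Itgb3 was 4.81 and 3.69 CPM in the wild type and 10.1 and 12.6 CPM in the knockout at day 0, 6.05 and 8.20 and then 7.47 and 3.28 CPM at day 7, and 12.1 and 12.6 CPM by wild type label and 10.4 and 19.5 CPM by knockout label at day 21. It rose from day 7 to day 21 (1.13 ± 0.27, adjusted p = 0.0051). The rise over day 0 (0.97 ± 0.27, adjusted p = 0.0155) ended without WT day 0 replicate 2, KO day 0 replicate 1 or KO day 21 replicate 2 (adjusted p 0.0592 to 0.0607). The fall in the knockout at day 7 (-1.07 ± 0.39, adjusted p = 0.0446, -1.79 without KO day 7 replicate 1 and -0.60 without KO day 7 replicate 2) was lost in 9 of the 12 leave-one-out fits, without any day 0 library, either WT day 7 library, KO day 7 replicate 2 or either WT day 21 library (adjusted p 0.0511 to 0.235). It was also lost on TPM, without the filter on low counts, with the replicate number as a block and under the GC and length offset (adjusted p 0.0558 to 0.092).

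Itgb6, the epithelial partner of Itgav, was low throughout and had the largest genotype difference called before injury. It was 2.97 and 2.48 CPM in the wild type at day 0 against 0.517 and 0.147 CPM in the knockout, 3.06 and 5.51 against 7.24 and 7.66 CPM at day 7. By wild type label it was 1.12 and 0.405 CPM at day 21, and by knockout label 1.66 and 1.48 CPM. It rose at day 7 in the knockout (4.44 ± 0.61, adjusted p = 0.000188) and fell from day 7 to day 21 (-2.36 ± 0.38, adjusted p = 0.000362). The knockout held 17 and 4 counts of Itgb6 at day 0. On log2(TPM + 1), which compresses such low values, the rise was 1.74 and the fall -1.07, and on the rlog values they were 2.00 and -1.12, all called. The wild type change at day 7 was 0.65 and did not pass.

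Itga4 and Itga9 bind Vcam1, osteopontin and other matrix proteins. Itga4 stayed between 2.07 and 6.20 CPM and was not called in any comparison. Itga9 was 27.7 and 24.5 CPM in the wild type and 39 and 40.2 CPM in the knockout at day 0, and 14.1 and 20.0 and then 26.2 and 18.6 CPM at day 7. By wild type label it was 46.3 and 34.7 CPM at day 21, and by knockout label 54.0 and 46.3 CPM. It rose from day 7 to day 21 by 1.20 ± 0.15 (adjusted p = 7.27e-05), with day 21 above each day 7 library. Its falls at day 7 were -0.61 ± 0.21 in the wild type (adjusted p = 0.038, lost without any 1 of the day 0 libraries or WT day 7 replicate 1, adjusted p 0.0547 to 0.261) and -0.82 ± 0.21 in the knockout (adjusted p = 0.00931, lost without KO day 7 replicate 2, adjusted p = 0.0787, and under the GC and length offset, where it was -0.44, adjusted p = 0.128). Its rise over day 0 at day 21 (0.49 ± 0.15, adjusted p = 0.0219) ended without WT day 0 replicate 2, either KO day 0 library or either day 21 replicate 1 library (adjusted p 0.0587 to 0.081).

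Before injury the genotypes differed for some of these transcripts. At day 0, 14 of the 29 non-leukocyte members were called between the genotypes, 13 higher and 1, Itgb6, lower, where 27.4% of all genes were called and 14.8% were higher. The count was 5 without KO day 0 replicate 2, 6 without WT day 0 replicate 2, 8 without KO day 0 replicate 1, 9 without WT day 0 replicate 1, and 20 without either library labelled wild type at day 21. The share of all genes called in these fits is not given. That share moved with the libraries used and was 38.9% with day 0 and day 7 libraries alone. With all libraries the median difference of the 29 was 0.52, against 0.00 over all genes. By role, 5 of 11 laminin chains rose, as did 2 of 5 laminin-binding chains, 2 of 4 collagen-binding chains and 4 of 7 chains that bind fibronectin, vitronectin or TGF-beta. The sum of the laminin chains in TPM was 463.5 and 450.2 in the wild type and 819.7 and 868 in the knockout, of which Lamb2 made the greater part.

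The 4 members called under each alternative run were Lamb2, Itga8, Lama4 and Itgb1. Lamb2 was higher in the knockout by 1.15 ± 0.21 (adjusted p = 0.00423), Itga8 by 0.88 ± 0.11 (adjusted p = 0.00062), Lama4 by 0.65 ± 0.09 (adjusted p = 0.00141) and Itgb1 by 0.59 ± 0.08 (adjusted p = 0.00121). Lama4 was 0.31 higher under the GC and length offset, at adjusted p = 0.0495. In each of the 4 both knockout libraries were above both wild type libraries, as was so for 75.1% of all genes in 1 direction or the other. Of the classical stem cell receptor, only the Itgb1 chain differed by the test, since Itga7 was within its error of 0.

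The other laminin chains called at day 0 were Lama3 (1.30 ± 0.31, adjusted p = 0.0118), Lamc1 (0.82 ± 0.18, adjusted p = 0.00921) and Lamb1 (0.56 ± 0.13, adjusted p = 0.0126). The Lama3 call ended without either WT day 0 library or KO day 0 replicate 1, Lamc1 without WT day 0 replicate 1 or KO day 0 replicate 2, and Lamb1 without either WT day 0 library or KO day 0 replicate 2 (adjusted p 0.0581 to 0.0846). Lama3 was also lost with an offset for effective length (0.73), on TPM (0.36 with a pseudocount of 1) and on the rlog values (0.45), with adjusted p from 0.0757 to 0.367. Under the GC and length offset Lamb1 was lost (0.20, adjusted p = 0.169) and Lamc1 was 0.35 (adjusted p = 0.0495). Lama5 was 1.26 ± 0.41 higher and Lama2 0.36 ± 0.13 higher, short of the threshold (adjusted p = 0.0529 and 0.0694), and Lamb3 was -1.59 ± 0.61 (adjusted p = 0.079).

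The other integrin chains called higher were Itgb3 (1.42 ± 0.39, adjusted p = 0.0246), Itga6, described above, Itga2 (0.60 ± 0.15, adjusted p = 0.0144), Itga1 (0.50 ± 0.13, adjusted p = 0.0203), Itgav (0.49 ± 0.12, adjusted p = 0.0128) and Itgb5 (0.43 ± 0.12, adjusted p = 0.0289). Leaving out any 1 day 0 library ended the calls of Itgb3 and Itgb5, and leaving out WT day 0 replicate 2 or either KO day 0 library ended those of Itga1, Itga2 and Itgav (adjusted p 0.0523 to 0.156). Itgav was also lost with the effective length offset (0.18), on TPM (0.23), on the rlog values (0.17) and under the GC and length offset (0.32), with adjusted p from 0.0806 to 0.368. The GC and length offset ended the calls of Itga2 (0.42, adjusted p = 0.0571) and Itgb5 (0.38, adjusted p = 0.0754), and TPM those of Itga1 (adjusted p 0.0676 and 0.0725), of Itga2 with a pseudocount of 0.1 (adjusted p = 0.0618) and of Itgb3 with a pseudocount of 1 (adjusted p = 0.0506). Itga1 was 0.32 under the GC and length offset (adjusted p = 0.0457). Itgb6 was lower by -2.99 ± 0.59 (adjusted p = 0.00525), by -0.92 on log2(TPM + 1) and -1.30 on the rlog values, with adjusted p = 0.0502 without KO day 0 replicate 2. Itgb4 was 0.82 ± 0.32 higher (adjusted p = 0.09) and was not called.

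Other measures separated the day 0 genotypes in the same libraries. Over all genes, the median log2 difference between knockout and wild type rose with transcript length, from -0.21 in the shortest class through -0.06 and 0.10 to 0.27 in the longest, where 24 of the 29 members lie. Under the GC and length offset 12 members were called, 9 higher and 3 lower, with a median of 0.31, where 24.2% of all genes were called and their median was 0.05. Stem cell markers summed to 1343 to 1346 CPM in the wild type and 781 to 801.3 CPM in the knockout, and 7 of 8 were lower by the test. Smooth muscle and pericyte markers were higher in the knockout (4 of 5 called), and keratinocyte markers lower (7 of 7 tested). Fibro-adipogenic markers summed to 14590 to 14770 CPM in the wild type and 8046 to 8399 CPM in the knockout, with 2 of 6 lower and 0 higher by the test. Leukocyte markers summed to 1771 to 1802 CPM and 2899 to 2936 CPM, with 1 of 11 lower, and were mostly Lyz2. The part of these shifts in the member differences was not tested.

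**Figure D4:**
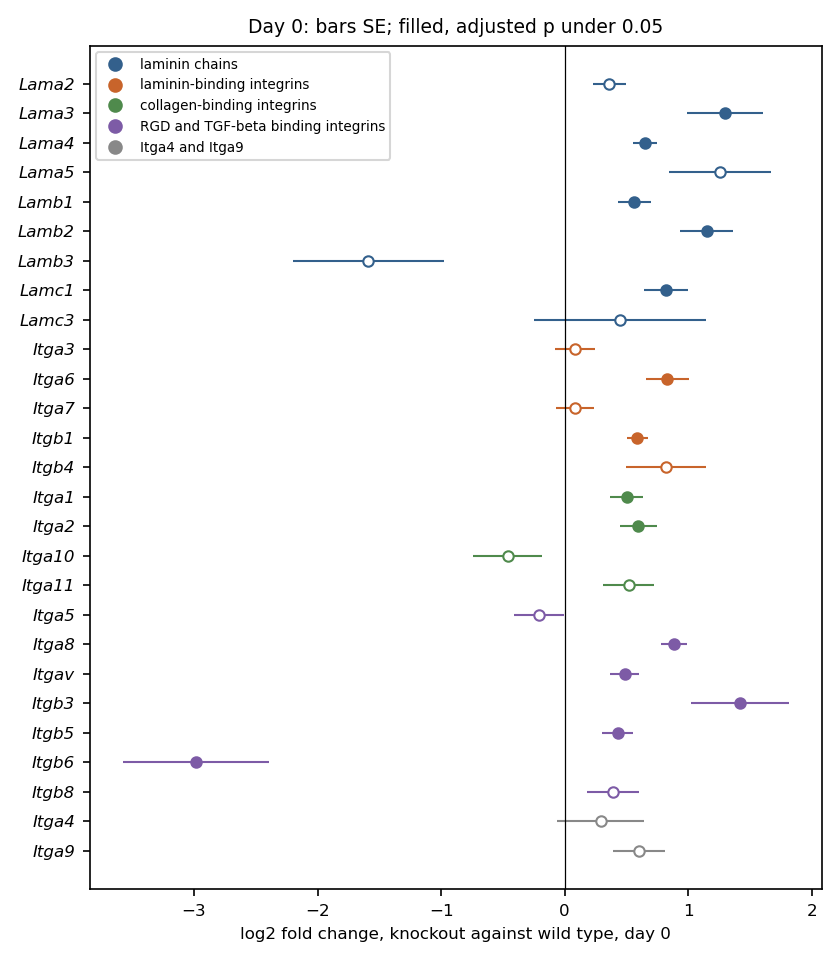
Log2 fold change of knockout against wild type at day 0 for 27 non-leukocyte members, with SE bars; filled points had an edgeR adjusted p under 0.05, colours give the role, and Lama1, at 3 counts or fewer in each day 0 library, is left out. The 14 filled points are 13 to the right of 0 and Itgb6 at -2.99.

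At day 7 the median genotype difference of the 29 was 0.14 and the 1 call was Itga6. The genotypes' libraries did not overlap for 22 of the 29, where that was so for 47.4% of all genes. Itga8 and Itgb1 were among the members whose knockout libraries were above the wild type ones, as at day 0, by 0.14 and 0.15, which did not pass (adjusted p = 0.637 and 0.477). At day 7, 8 members had an unadjusted p under 0.05, as did 2268 of all genes. The summed laminin chains were 414.1 and 421.5 TPM in the wild type and 477.9 and 369.9 TPM in the knockout. At day 21, by label, 0 members were called by edgeR, where 0.0126% of all genes were called (0.00629% higher and 0.00629% lower). The libraries did not overlap for 10 of the 29, where that was so for 38% of all genes. By edgeR, 6 members had an unadjusted p under 0.05, as did 2259 of all genes. DESeq2 called 4 members, and its share over all genes is not given. Without the library of each label that its Sesn2 level contradicted, which leaves 1 library a side that is assumed to vary like the other groups, 8 members were called, where 7.29% of all genes were called, and Lama5 was at -0.95 (adjusted p = 0.00418).

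The day 7 response itself differed between the genotypes for 10 of the 29 members, 1 higher and 9 lower in the knockout, where 13.5% of all genes were called, 6.08% higher and 7.39% lower. The 4 day 0 libraries enter both this test and the day 0 comparison, so the 2 are not independent. Among laminins the difference was -0.98 ± 0.19 for Lamb1 (adjusted p = 0.0119), -0.95 ± 0.26 for Lamc1 (adjusted p = 0.0371), -0.83 ± 0.13 for Lama4 (adjusted p = 0.00572) and -0.74 ± 0.19 for Lama2 (adjusted p = 0.0309). Lamb1 thus rose in both genotypes but by less in the knockout, and Lama2 rose in the wild type only, with the difference itself called. Among integrins the response differed by -1.98 for Itga6 and -1.06 for Itga2, given above, by -0.75 ± 0.15 for Itga8 (adjusted p = 0.0128), by -0.71 ± 0.17 for Itgav (adjusted p = 0.0218), by -0.44 ± 0.12 for Itgb1 (adjusted p = 0.0343) and by 3.78 ± 0.77 for Itgb6 (adjusted p = 0.0139). Only Itga6 and Lama4 were called in each leave-one-out fit, and Lama4 had adjusted p = 0.0752 under the GC and length offset. Lamb1 was lost without KO day 0 replicate 2 (adjusted p = 0.051), Itga8 without WT day 0 replicate 2 or KO day 0 replicate 2 (adjusted p up to 0.0575), and Itgb6 without WT day 0 replicate 1, KO day 0 replicate 2 or WT day 7 replicate 1 (adjusted p up to 0.0587). Lama2 and Itgb1 were lost without any 1 of the 8 day 0 and day 7 libraries, Lamc1 without any but KO day 7 replicate 1, and Itgav without any but WT day 0 replicate 1 and KO day 7 replicate 1 (adjusted p up to 0.14). Under the GC and length offset 6 of the 29 were called, where 9.59% of all genes were: Lama2, Lamc1 and Itgav were lost with Lama4 (adjusted p 0.0752 to 0.158) and Lamb1 was -0.62 (adjusted p = 0.0247). The same 3, Lama2, Lamc1 and Itgav, and Itga2 were lost on TPM (adjusted p up to 0.365). Lama2, Lamc1 and Itgav were also lost with the effective length offset, and Lama2 and Itgav on the rlog values. Lamc1 was lost with the replicate number as a block, and Itgb1 without the filter on low counts. The median over all genes fell from 0.29 in the shortest to -0.32 in the longest class of transcripts in this test.

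**Figure D5:**
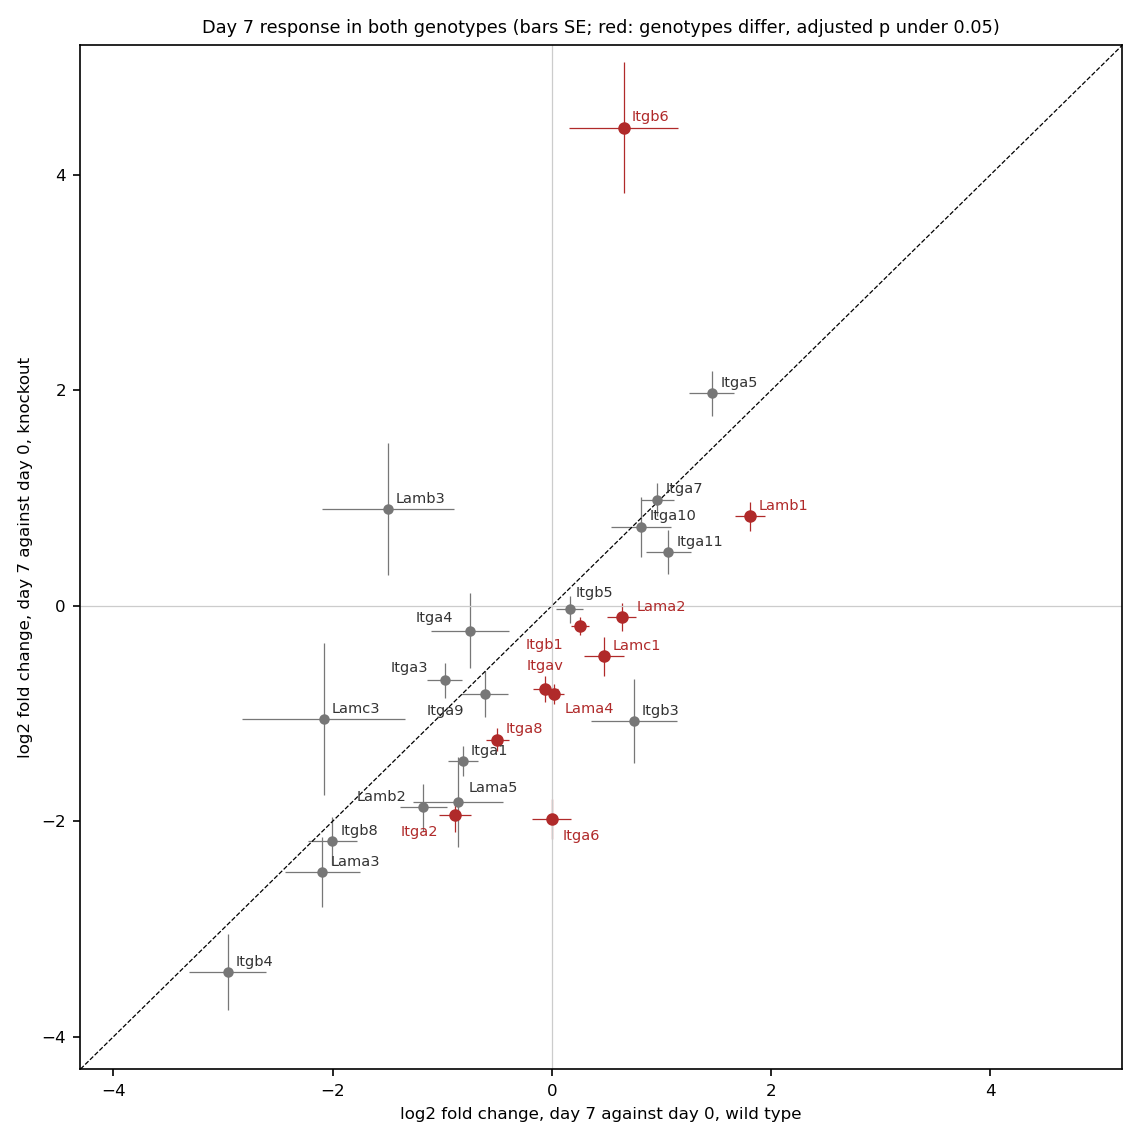
Log2 fold change from day 0 to day 7 in the wild type (horizontal) and the knockout (vertical) for 27 non-leukocyte members, with SE bars and the line of equal response; red points are the 10 members whose responses differed by edgeR with adjusted p under 0.05, and Lama1 is left out for its low counts. Itga6 lies at -1.98 on the vertical axis, and 9 of the 10 red points lie under the line.

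Partner genes of the same adhesions gave a mixed picture at day 0. Of 19 tested genes of the adhesion machinery inside the cell, 4 were higher and 3 lower in the knockout, and of 17 basal lamina partners and ligands 9 were higher and 2 lower, where 14.8% of all genes were higher and 12.6% lower. The highest ranked by adjusted p were Vcl (vinculin, 1.13 ± 0.11, adjusted p = 0.000296), Tln1 (talin, which links integrin tails to actin, 1.53 ± 0.24, adjusted p = 0.00234) and Agrn (agrin, a laminin-bound proteoglycan, 1.32 ± 0.23, adjusted p = 0.00309). Lower were Spp1 (osteopontin, -0.90 ± 0.12, adjusted p = 0.000888) and Vcam1 (a ligand of Itga4, -1.16 ± 0.20, adjusted p = 0.00318). The kindlin Fermt1, an epithelial integrin activator, had no count in either knockout library and 1.47 and 1.13 CPM in the wild type, at least 12.9-fold lower.

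In the wild type at day 7, where 47% of all genes were called, 7 of 17 basal lamina partners and ligands rose and 4 fell, with Nid1 (nidogen, which joins laminin to collagen, 1.86 ± 0.10, adjusted p = 1.08e-06) and Postn (periostin, 2.98 ± 0.15, adjusted p = 7.77e-07) among those that rose. In the knockout, where 46.9% of all genes were called, 6 rose and 7 fell, with Spp1 (3.03 ± 0.12, adjusted p = 1.5e-07) and Postn (2.83 ± 0.15, adjusted p = 5.46e-07) highest in rank. Of the 19 genes of the adhesion machinery 2 rose and 7 fell in the wild type, and 5 rose and 7 fell in the knockout. Itgb1bp2, the muscle protein melusin that binds Itgb1, rose from 1.22 and 1.90 CPM to 19.0 and 28.4 CPM in the wild type (3.91 ± 0.40, adjusted p = 3.9e-05) and from 0.486 and 0.0737 CPM to 36.6 and 34.3 CPM in the knockout (6.89 ± 0.50, adjusted p = 3.6e-06). Differentiating myoblast markers rose at the same time, 5 of 5 in each genotype, and their part in this was not tested.

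The leukocyte and platelet integrins were low, at no more than 12.3 CPM in any library. Itgb2, the beta chain common to the leukocyte family, was 0.312 and 0.290 CPM in the wild type and 0.790 and 0.295 CPM in the knockout at day 0, 3.73 and 5.97 and then 6.52 and 1.72 CPM at day 7. By wild type label it was 0.679 and 0.723 CPM at day 21, and by knockout label 1.33 and 1.48 CPM. The 4 day 7 libraries were the highest. Itgb2 rose at day 7 in the wild type (3.99 ± 0.68, adjusted p = 0.000887) and in the knockout (2.90 ± 0.64, adjusted p = 0.00394, and 1.64 without KO day 7 replicate 1) and fell to day 21 (-2.17 ± 0.43, adjusted p = 0.00158). On log2(TPM + 1) these values of Itgb2 were 1.75, 1.32 and -0.98, all called. Its excess over day 0 at day 21 (1.28 ± 0.47, adjusted p = 0.045) ended in 9 of the 12 leave-one-out fits, those without WT day 0 replicate 1 or 2, KO day 0 replicate 2, either WT day 7 library or any day 21 library (adjusted p 0.0562 to 0.133).

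Itgam, an alpha chain of this family, was 1.41 and 2.14 CPM in the wild type and 0.942 and 0.626 CPM in the knockout at day 0, and 1.89 and 2.46 and then 2.41 and 1.85 CPM at day 7. By wild type label it was 1.15 and 1.82 CPM at day 21, and by knockout label 2.07 and 1.57 CPM. Its rise at day 7 in the knockout (1.43 ± 0.42, adjusted p = 0.0175) ended without KO day 0 replicate 2 or KO day 7 replicate 1 (adjusted p 0.133 and 0.0837). Itgax had no count in the 4 day 0 libraries, was at 0.359, 1.16, 1.28 and 0 CPM at day 7, and had 2 counts in WT day 21 replicate 2 and 0 in the other day 21 libraries, at least 7.36-fold lower than at day 7 over the groups. The Itgax call (adjusted p = 0.026) ended in 6 leave-one-out fits, without WT day 7 replicate 2, KO day 7 replicate 1 or any 1 day 21 library (adjusted p 0.0506 to 1). Neither DESeq2 nor the fit with the replicate number as a block made this call. Itgal and Itgae were not called in any comparison, and Itgal was highest, at 2.56 CPM, in WT day 7 replicate 2.

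Leukocyte markers were also called at day 7. Ptprc, the general leukocyte marker, was at most 0.12 CPM at day 0 and at 3.52, 9.0, 3.26 and 0.747 CPM in the day 7 libraries, highest in WT day 7 replicate 2, and 9 of 11 tested leukocyte markers rose and 1 fell in the wild type, and 8 rose and 1 fell in the knockout. The marker that fell was Lyz2, at 1765 to 2931 CPM at day 0 (-2.68 ± 0.27 in the wild type, adjusted p = 4.02e-05, and -3.21 ± 0.27 in the knockout, adjusted p = 1.2e-05). With it the summed level of the list went from 1771 to 2936 CPM at day 0 down to 283 to 426.4 CPM at day 7, opposite to Itgb2. The part of these markers in the Itgb2, Itgam and Itgax values was not tested.

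Unlike Itgb2, Itgb7 and Itga2b were not called higher at day 7. Itgb7, a beta chain of lymphocyte homing receptors, was 7.47 and 8.34 CPM in the wild type and 7.54 and 6.52 CPM in the knockout at day 0, and 1.20 and 2.02 and then 1.86 and 0.715 CPM at day 7. By wild type label it was 3.99 and 4.31 CPM at day 21, and by knockout label 5.80 and 6.17 CPM. It fell by -2.30 ± 0.39 (adjusted p = 0.000818) and -2.43 ± 0.39 (adjusted p = 0.000587) and rose again by 1.78 ± 0.27 (adjusted p = 0.00028), or -1.52, -1.15 and 1.04 on log2(TPM + 1). Between days, Itgb7 was thus lowest at day 7, where Itgb2 was highest. Within day 7 both were lowest in KO day 7 replicate 2, Itgb7 at 0.715 and Itgb2 at 1.72 CPM. Itga2b, the platelet fibrinogen receptor chain, lay between 3.41 and 12.3 CPM while 5 platelet markers summed to 0.442 to 3.74 CPM. Its fall in the wild type at day 7 (-0.91 ± 0.32, adjusted p = 0.0379) ended without any 1 of the 4 wild type day 0 and day 7 libraries (adjusted p 0.0604 to 0.172) and was 0.09 when tested on TPM. Its rise from day 7 to day 21 was 0.89 ± 0.23 (adjusted p = 0.00634) and did not pass on TPM (adjusted p up to 0.068). None of the 7 tested leukocyte and platelet integrins was called between the genotypes on any day or in the difference of responses.

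Some members share bases with other genes. The labels name no strand in the counting, so reads from bases shared with a gene on the other strand cannot be assigned by strand. In the GRCm38 annotation such exonic overlaps were found for Lama2, Lama3, Lamc3, Itga4, Itga7, Itga8, Itgav, Itgb4 and Itgad. Exonic overlaps with a gene on the same strand, which strand could not resolve, were found for Itga1, Itga10, Itgam and Itgad.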

How the data were processed

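Bulk RNA of sorted muscle stem cells was sequenced in 12 libraries. Per the submitters' processing notes, reads were quantified with kallisto 0.46.1 on mm10/GRCm38.p6. The authors deposited estimated counts, TPM, and batch-corrected rlog values on a log2 scale whose batch is not named in the sources used here. Estimated counts were rounded, filtered with filterByExpr over the 6 groups, scaled by TMM and tested with edgeR 4.0.16 (robust quasi-likelihood, all groups in 1 fit), with Benjamini-Hochberg adjustment over 15890 genes and a threshold of 0.05. CPM are rounded counts over the TMM-scaled totals, and the SE is the log2 fold change over the square root of F. Alternatives used DESeq2 1.42.0, limma 3.58.1 on log2(TPM + 1) or log2(TPM + 0.1), limma on the rlog values, other scalings, and leaving out libraries. The fit was checked on simulated counts.

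Members called and past 1 in either direction on the log2 scale, and Itga7, Itgb1, Lama2, Lamb1 and Lamc1, were given in every library. Partner genes were named from the 3 smallest adjusted p in each direction. The members and lists were chosen with earlier results of these data known. Gene positions are from GENCODE M21. Values of 1 member and of some marker genes are not reported here, though counts over the members include that member.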

Additional observations from a re-analysis of the deposited data

Results flagged for a closer look

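For 10 members the change from day 0 to day 7 differed between knockout and wild type by a test of the difference itself (edgeR interaction term, adjusted p under 0.05). The log2 difference was -1.98 for Itga6, -1.06 for Itga2, -0.98 for Lamb1, -0.95 for Lamc1, -0.83 for Lama4, -0.75 for Itga8, -0.74 for Lama2, -0.71 for Itgav, -0.44 for Itgb1 and 3.78 for Itgb6. Groups held 2 libraries each, so no library was tested as an outlier within its group.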

How the results depend on the processing

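Counts are of the 29 members that are not leukocyte or platelet integrins. Leaving out 1 library in turn gave 13 to 20 calls in the wild type at day 7 against 17, 16 to 22 in the knockout against 18, 12 to 19 at day 21 against day 0 (main 19), 5 to 20 between genotypes at day 0 (main 14), 0 to 1 at day 7 (main 1), 0 to 4 at day 21 by label (main 0) and 3 to 12 for the difference of responses (main 10). The share of all genes called in each of these fits is not given, so the ranges are not set against it. With day 0 and day 7 libraries alone the genotype counts were 23 at day 0 and 6 at day 7, and 16 for the difference of responses, where 38.9%, 7.46% and 24.8% of all genes were called against 27.4%, 1.76% and 13.5% with all libraries. Without the 2 day 21 libraries that go against their labels they were 22, 7 and 16 (36.7%, 6.9% and 22.8% of all genes), and 8 at day 21 (7.29%). On TPM with either pseudocount the day 7 count was 0 and the difference of responses 6, and 6 again under the GC and length offset. The batch-corrected rlog values gave 5 at day 7 and 2 at day 21, and DESeq2 gave 4 at day 21. The shares of all genes called on TPM, on the rlog values and by DESeq2 are not given, so these counts are not set against them.

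Some single genes reversed. Itga2b in the wild type at day 7 was 0.0877 and 0.0974 on TPM with pseudocounts of 1 and 0.1, Lama4 was -0.13 at day 21 against day 0 under the GC and length offset, Lama5 was -0.0116 and -0.0124 at day 21 against day 7 on TPM with those pseudocounts, and Lama5 was -0.95 between genotypes at day 21 without the 2 contradicted libraries. The cause was not tested. Over 6243 single-gene values under 23 alternatives, 5733 kept direction and side of the threshold, 275 lost it, 229 gained it and 6 reversed.

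Replicate numbers gave no sign of pairing in a check over all tested genes. Over 15 pairs of groups the correlation of deviations from the group mean ran from -0.112 to 0.052. Noise in genes of low count enters this value, so it cannot show that libraries of 1 replicate number shared no animal or processing round. With the replicate number as a block the counts were 18 and 17 at day 7 in the wild type and knockout, 19 and 24 at day 21, 15, 1 and 0 between genotypes at days 0, 7 and 21, and 9 for the difference of responses. The share of all genes called with this block is not given.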

Other observations

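Among the ligands and partners, Spp1 (osteopontin, a ligand of several of these integrins) changed its order between the genotypes. It was 71.7 and 74.2 CPM in the wild type and 40.7 and 37.5 CPM in the knockout at day 0, and 153 and 142 against 319 and 319 CPM at day 7. The knockout was higher at day 7 by 1.11 ± 0.12 (edgeR adjusted p = 0.00217), and the responses differed by 2.01 ± 0.16 (adjusted p = 0.000343). Nid1, which joins laminin to collagen, was 176 and 183 CPM in the wild type and 226 and 228 CPM in the knockout at day 0, and 647 and 656 against 476 and 454 CPM at day 7. Its responses differed by -0.82 ± 0.14 (adjusted p = 0.00756).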
